A study of Mus musculus and Rattus norvegicus with 36 samples.

Results

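The genes described here encode the subunits of the proteasome in liver and kidney of mice and rats fed diets that differed in selenium (Se). They were chosen by symbol: every probe set with a single gene symbol that starts with Psma, Psmb, Psmc, Psmd or Psme and goes on with a digit was taken, and where a gene had several probe sets, the brightest on average in that tissue stood for it. The rule found 44 of 18193 genes with a single symbol on the mouse array (91 probe sets) and 41 of 14217 on the rat array (55 probe sets). Of 45 distinct genes, 40 were on both arrays, Psma8, Psmb6, Psmb11 and Psme3 were taken on the mouse array alone, and Psme2 was taken on the rat array alone. Probe sets that share a symbol with another gene were left out, which removed Psmb6 and Psme3 from the rat and Psme2 from the mouse genes. The rule also took Psmc3ip and Psme3ip1, whose products are partners of other proteins and not subunits of the proteasome, and both were kept in every count.

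Expression was measured on 36 Affymetrix arrays, 3 per diet, each from 1 animal, and all animals ate a torula-yeast basal diet with sodium selenite added. Male weanling mice, from a colony described as predominantly C57 black and wild-type, ate for 35 days a Se-deficient diet without added Se, or that diet with Se added to 0.05 μg/g or to 0.2 μg/g, and both liver and kidney were analysed. Male weanling Holtzman rats were fed for 28 days, and only liver was analysed: rat study 1 gave the arrays of 2 diets (0.08 and 0.8, as μg Se/g), and rat study 2 gave those of the Se-deficient diet and of 0.24, 2 and 5 μg Se/g. The Se-adequate diets were 0.2 μg Se/g (mice) and 0.24 μg Se/g (rat study 2), and 0.08 μg Se/g was the reference within rat study 1. No animal carried a transgene or was given a drug; livers were perfused before freezing, and rats fed 5 μg Se/g grew less than the rest of study 2. A level below is a log2 expression value, so a difference of 1 is a 2-fold difference, and a gene was called where the adjusted p of limma's moderated test over all probe sets was below 0.05. RNA was extracted from whole tissue, in which fewer cells of a type and less RNA per cell cannot be told apart.

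The proteasome degrades proteins that carry ubiquitin chains and supplies most of the peptides shown on major histocompatibility class I molecules. Its 20S core is a barrel of outer alpha rings (Psma genes) and inner beta rings (Psmb genes), and Psmb5, Psmb6 and Psmb7 encode the subunits that cut. Interferon replaces these with Psmb8, Psmb9 and Psmb10 to form the immunoproteasome. A 19S cap of ATPases (Psmc genes), which unfold the substrate, and non-ATPase subunits (most Psmd genes), which bind and trim ubiquitin, sits on the ends of the barrel, and the Psme genes encode other caps. Proteasome genes are known to rise together when degradation falls short, through the transcription factor Nrf1 (Nfe2l1). Hepatocytes and kidney tubule cells express all standard subunits.

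The diets and tissues were checked first. Gpx1, the cytosolic glutathione peroxidase whose mRNA falls in Se deficiency, was lower in Se-deficient than Se-adequate animals by a log2 difference of -1.15 ± 0.07 (SE, adjusted p = 0.000129) in mouse liver, -1.26 ± 0.10 (adjusted p = 0.00388) in mouse kidney and -1.87 ± 0.12 (adjusted p = 0.000132) in rat liver. Alb, the hepatocyte product albumin, was between 14.76 and 14.90 in mouse liver and between 14.89 and 15.03 in rat liver, against 7.96 to 10.56 in mouse kidney. Umod, a product of the kidney's thick ascending limb, was between 13.61 and 13.75 in kidney and between 3.64 and 4.21 in mouse liver. Array medians lay between 6.17 and 6.29 in all tissues. The 3′ minus 5′ difference of the Gapdh control probe sets was 0.14 to 0.26 in mouse liver, 0.19 to 0.60 in mouse kidney and 0.13 to 0.30 in rat liver. The study's methods state that arrays of each study and of each mouse tissue were processed separately, so levels were not tested across them. Mean levels of the genes ran from 5.49 for Psma8 to 12.22 for Psmd11 in mouse liver, from 4.40 for Psmb11 to 11.99 for Psmb7 in mouse kidney and from 7.45 for Psmc3ip to 12.60 for Psma6 in rat liver, but probe sets differ in brightness and these values do not rank the genes.

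None of the proteasome genes was called by limma in any comparison of diets or in the difference between mouse tissues. This held also for 5 against 0.24 μg Se/g in rat liver, where 875 of 31042 probe sets (2.82%) were called. The genes nevertheless did not spread evenly around 0 in every comparison, and some arrays stood apart from the rest: 2 of the 3 rats fed 2 μg Se/g, in most of the genes, and 1 of the 3 mice fed 0.05 μg Se/g, in the immunoproteasome genes and Psme1. Those arrays are shown singly below. The plot of log2 changes by comparison gives all genes at once.

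**Figure D1:**
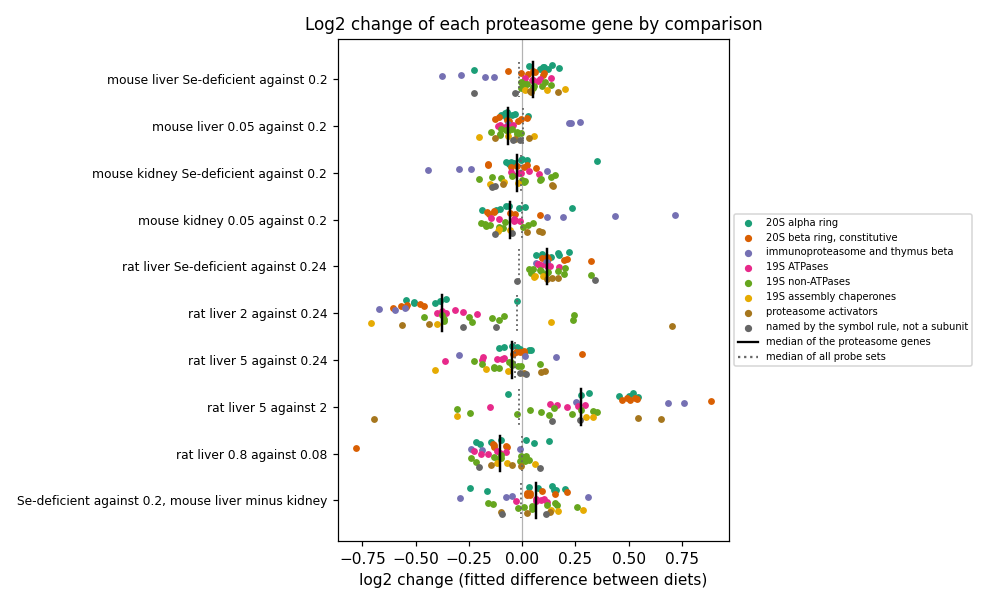
Log2 change of each proteasome gene (points, coloured by role) in each comparison of diets (rows, μg Se/g), with the median of these genes (black line) and of all probe sets (dotted line). The black line lies at -0.38 for rat liver at 2 against 0.24 μg Se/g and at 0.28 for 5 against 2, and within 0.12 of 0 in the other rows.

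In rats fed 5 μg Se/g, the diet with the widest response of the series, the proteasome genes stayed close to those of Se-adequate rats. The median log2 change over the 41 genes was -0.05, against -0.03 over all probe sets, and single changes ran from -0.41 for Psmd9 to 0.28 for Psmb7. In this comparison 12 genes had a change above 0 and 29 below it, beside 57.4% of all probe sets below 0. In 8 genes all 3 rats at 5 were lower than all 3 at 0.24, and in 0 all were higher. Over all probe sets the shares were 12.5% and 11.1%. One gene, Psmc6, had an unadjusted p under 0.05, where 14.7% of all probe sets had one. The errors at 5 against 0.24 hold the spread of the rats at 2 μg Se/g, which are in the same fit. The median SD of these genes was 0.44 at 2, against 0.09 at 0.24 and at 5. Over all probe sets it was 0.17, 0.14 and 0.11. The low count of unadjusted p, and changes within their errors, therefore cannot be read as a lack of change.

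The 20S core genes lay close to the controls at 5 μg Se/g, with medians of -0.03 in the alpha ring and -0.00 in the constitutive beta ring. Psmb5, which encodes the chymotrypsin-like subunit, was 12.04, 12.03 and 12.28 in the rats at 0.24 and 12.10, 12.02 and 12.09 in the rats at 5, and the change was -0.04 ± 0.27 (SE, adjusted p = 0.967). Psmb7, the trypsin-like subunit, was 10.48, 10.38 and 10.94 at 0.24 and 11.02, 10.78 and 10.85 at 5 (0.28 ± 0.36, adjusted p = 0.793). The groups overlapped in both genes. Among the immunoproteasome genes, Psmb8 was 10.59, 10.73 and 11.08 at 0.24 and 10.50, 10.80 and 10.19 at 5, a change of -0.30 ± 0.21 (adjusted p = 0.583). Psmb9 (0.01 ± 0.25) and Psmb10 (0.16 ± 0.25) differed by less than their errors. In the alpha ring, whose subunits gate the entry to the barrel, the genes with the smallest p were Psma3 (-0.09 ± 0.11, adjusted p = 0.786) and Psma4 (-0.11 ± 0.17, adjusted p = 0.832).

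The 19S genes were listed lower at 5 μg Se/g in all but 1 case, without a call. All 6 ATPase genes had a change below 0, with a median of -0.15, and so did 10 of 11 non-ATPase genes, with a median of -0.06. Psmc6 was 10.31, 10.33 and 9.74 at 0.24 and 9.96, 9.67 and 9.66 at 5, a change of -0.36 ± 0.16 (adjusted p = 0.319). The third Se-adequate rat lay among the rats at 5, so the groups overlapped. Psmc1 was 10.39, 10.42 and 10.30 at 0.24 and 10.23, 10.14 and 10.18 at 5, with no overlap (-0.19 ± 0.11, adjusted p = 0.473). Psmd1, the largest scaffold subunit of the cap (-0.22 ± 0.17), and Psmd4, a receptor for ubiquitin chains (-0.19 ± 0.18), also did not overlap between the groups. The cap is assembled with the help of the chaperones Psmd5, Psmd9 and Psmd10, and Psmd9 was 9.92, 9.65 and 9.87 at 0.24 and 9.26, 9.38 and 9.58 at 5, again without overlap (-0.41 ± 0.24, adjusted p = 0.472). Psmd5 changed by -0.17 ± 0.11 (adjusted p = 0.51). The activators Psme1 (0.11 ± 0.21, adjusted p = 0.878) and Psme2 (0.09 ± 0.25, adjusted p = 0.924), which form the interferon-induced cap, were within their errors.

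The rats fed 2 μg Se/g did not form 1 group in these genes. The median difference from the mean of the Se-adequate rats was -0.83 in replicate 1, -0.29 in replicate 2 and -0.01 in replicate 3. Of the 41 genes, 37, 36 and 21 were below that mean in replicates 1, 2 and 3, beside 53.9%, 57.4% and 51.2% of all probe sets, and 16 were at least 2-fold lower in replicate 1, where 4.16% of all probe sets were. In replicates 2 and 3 none of the genes was 2-fold lower, beside 0.106% and 0.222% of all probe sets. Replicate 1 had the lowest value of all 18 rat arrays in 32 of 41 genes, beside 18.8% of all probe sets. The median of all probe sets differed from the Se-adequate mean by -0.03, -0.04 and 0.00 in the same arrays, and their Gapdh 3′ minus 5′ differences were 0.20, 0.24 and 0.19, inside the range of the other rat arrays. Within the 2 μg Se/g group the median SD of the genes was 0.44, against 0.07 to 0.12 in the other rat groups and 0.17 for all probe sets of the same group.

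**Figure D2:**
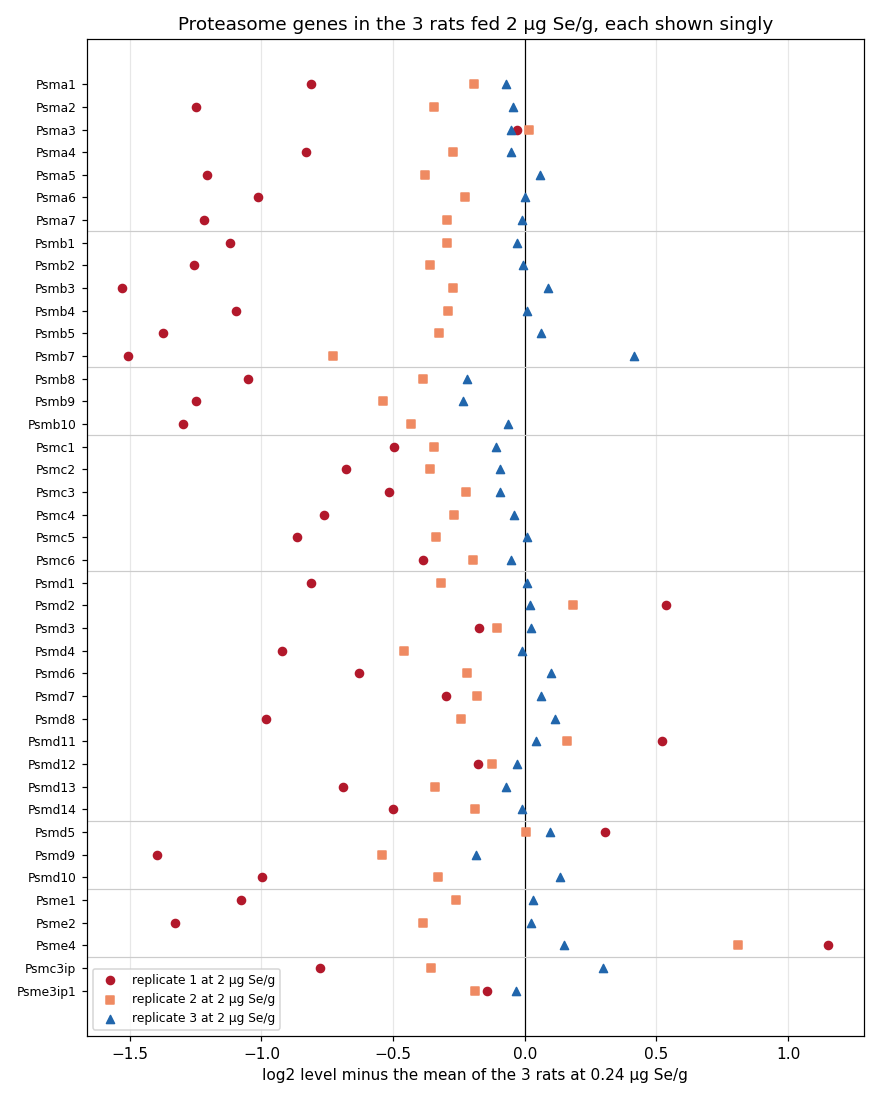
Log2 level of each of the 41 proteasome genes in the 3 rats fed 2 μg Se/g (x axis), each as the difference from the mean of the 3 rats at 0.24 μg Se/g, with genes ordered by role down the y axis. Replicate 1 lies furthest left in most genes (Psmb3 at -1.53) and furthest right in Psme4 (1.15), and replicate 3 lies near 0.

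The 20S core genes differed most in replicate 1. The median difference was -1.01 in the alpha ring and -1.31 in the constitutive beta ring, against -0.27 and -0.31 in replicate 2 and -0.05 and 0.03 in replicate 3. Psmb3 was 11.61, 11.54 and 11.70 in Se-adequate rats and 10.09, 11.34 and 11.71 in the rats at 2. Psmb5 was 10.74, 11.79 and 12.17 at 2, and Psmb7 was 9.09, 9.87 and 11.01. In each of these the lowest value belonged to replicate 1 and the highest to replicate 3, which lay within or above the Se-adequate values. Psma3 was the exception in the alpha ring, at 9.29, 9.34 and 9.27 against 9.33, 9.41 and 9.22 in Se-adequate rats. The immunoproteasome genes ran the same way: Psmb8 was 9.75, 10.41 and 10.58, Psmb9 was 9.33, 10.04 and 10.34, and Psmb10 was 8.23, 9.10 and 9.47 at 2 μg Se/g. For Psmb8 and Psmb9 all 3 rats were below the Se-adequate rats, and Psmb10 overlapped with them.

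The 19S ATPase and non-ATPase genes had smaller median differences in replicate 1 than the 20S rings, and 4 of the 41 genes had their highest value of all rat arrays in replicate 1, beside 20.9% of all probe sets. The ATPase genes had median differences of -0.60, -0.30 and -0.07 in replicates 1, 2 and 3, and the non-ATPase genes of -0.50, -0.19 and 0.02. Psmc1, at 9.88, 10.03 and 10.26, was below every Se-adequate rat in all 3. Psmd9 was 8.42, 9.27 and 9.63, and Psmd4 was 9.23, 9.70 and 10.15 against 10.13, 10.17 and 10.17 in Se-adequate rats. In the other direction, Psmd2 was 11.69, 11.33 and 11.17 against 11.06, 11.21 and 11.19, and Psmd11 was 12.05, 11.69 and 11.57 against 11.49, 11.59 and 11.49. Psmd5 was 10.69 in replicate 1 against 10.37 to 10.41 in Se-adequate rats. Psme4, which encodes the large activator PA200, was 10.91, 10.99 and 10.86 in Se-adequate rats and 12.07, 11.73 and 11.07 at 2 μg Se/g, so replicate 1 was 1.15 and replicate 2 was 0.81 above the Se-adequate mean. The caps Psme1 (11.39, 12.20 and 12.50) and Psme2 (9.70, 10.65 and 11.06) were lowest in replicate 1, by -1.08 and -1.33 from the Se-adequate mean.

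The other probe sets of these genes mostly had the same sign in replicate 1, but often a smaller difference. Of 9 genes with more than 1 probe set, Psmd11 alone had probe sets of opposite sign in replicate 1, at 0.52 in the brightest and -0.36 and -0.01 in the others. All 3 probe sets of Psme4 were higher in replicate 1, by 1.15, 1.02 and 1.07. Of 14 further probe sets, 12 were lower in replicate 1, and replicate 1 was the lowest of the 3 rats in 5. Psmb5 was at -1.38 in its brightest probe set and at -0.15 and -0.28 in the others, Psmd9 at -1.40 and -0.33, Psme1 at -1.08 and -0.30, and Psmc4 at -0.76 and -0.11. The dimmer probe sets of these 4 genes had mean levels of 4.62 to 6.13. Over all 55 probe sets, 49 were lower in replicate 1.

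Tested as a group, the rats at 2 μg Se/g gave 0 called genes of 41 against the Se-adequate rats, while 21 had an unadjusted p under 0.05, 20 of them lower, and 37 were below 0, beside 54.5% of all probe sets. Over all probe sets 1 was called (0.00322%), 15.3% had an unadjusted p under 0.05, and 6.85% had one and were lower. The median log2 change was -0.38, against -0.02 over all probe sets, and the smallest adjusted p was 0.321. Psme4 had a change of 0.70 ± 0.20, Psmd9 one of -0.71 ± 0.24 and Psmb9 one of -0.67 ± 0.25 (adjusted p = 0.321 each). In 7 genes all rats at 2 were below all Se-adequate rats and in 1 all were above, beside 6.9% and 5.85% of all probe sets. The outcome turned on single rats. Without replicate 3, 31 of the 41 genes were called, 30 lower, among 5800 called probe sets (18.7%). Without replicate 1 or without replicate 2, 0 were called (0.00644% and 0.00322% of all probe sets), and the median change was -0.14 and -0.43. With replicate 3 as the only rat at 2, assumed to vary like the other groups, the median was -0.01.

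Genes that work with the proteasome also differed between these rats, as did many other probe sets. Over the whole array, levels rose from replicate 1 to 2 to 3 in 29.7% of all probe sets and fell in 28.2%. Replicate 1 was below the Se-adequate mean in 53.9% of all probe sets, the share to set beside each count for that rat below. Of 13 further proteasome factors on the rat array, 10 were lower in replicate 1, with median differences of -0.90, -0.36 and 0.06 in replicates 1, 2 and 3. Pomp, the chaperone that completes the 20S core, was 12.44, 12.41 and 12.50 in Se-adequate rats and 10.92, 12.03 and 12.53 at 2 μg Se/g. Sem1, a small cap subunit, was 11.24, 11.22 and 11.37 against 9.62, 10.72 and 11.33. Ecpas, which encodes the proteasome adaptor Ecm29, was 9.51, 9.90 and 9.61 against 10.65, 10.48 and 9.58, higher in replicates 1 and 2. Of 7 ubiquitin-activating and conjugating enzyme genes, 6 were lower in replicate 1 (median -0.62). Of 17 shuttle and p97 genes, which bring substrates to the proteasome, 12 were higher there (median 0.32), with Vcp, the p97 ATPase, at 0.58. Among 14 regulators of proteasome genes, 10 were higher in replicate 1 (median 0.28). Nfe2l1 itself was 9.12, 9.11 and 9.19 in Se-adequate rats and 9.41, 9.28 and 9.08 at 2. Ddi2, the protease that activates Nrf1, was 10.50, 10.65 and 10.43 against 11.38, 11.07 and 10.40. Unlike Psmb8, Psmb9 and Psmb10, most antigen-processing and interferon genes were not lower in replicate 1. Of 20, 6 were lower there, and the medians were 0.35, -0.15 and 0.13 in replicates 1, 2 and 3. None of the genes on these lists was called at 2 against 0.24 μg Se/g. Of the genes used to check the diets, Selenoh differed by -1.66, -0.62 and 0.07 in replicates 1, 2 and 3 and Selenow by -0.82, -0.45 and 0.93. Epcam, a bile duct marker, differed by -1.29, -1.19 and 1.90. The bile duct markers Krt19 (0.20, 0.62 and 0.999) and Krt7 (-0.25, 0.31 and 0.09) did not share its low values in replicates 1 and 2. The 15 endothelial, stellate and bile duct markers had medians of 0.01, 0.26 and 0.23 in replicates 1, 2 and 3. Of these 15, 7, 4 and 2 were below the Se-adequate mean. Hepatocyte markers had medians of 0.04, 0.01 and -0.03, but single ones moved both ways in each rat. They ran from -0.67 for Apoa1 to 0.94 for Hnf4a in replicate 1 and from -0.58 for Tat to 0.73 for Hnf4a in replicate 2. In replicate 3 they ran from -1.76 for Pck1 to 0.16 for Hnf4a. Leukocyte markers differed by medians of -0.26, -0.20 and -0.06 in the same 3 rats (summed leukocyte level 125.7, 125.9 and 128.6, against 128.0 to 131.9 in Se-adequate rats). The part of these cell types in the result was not tested.

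Set against the rats at 2, the rats at 5 μg Se/g were higher in 34 of 41 genes, with a median change of 0.28 against -0.01 over all probe sets, beside 47.2% of all probe sets above 0. None was called, where 1037 of all probe sets (3.34%) were, and 14 had an unadjusted p under 0.05, beside 24.2% of all probe sets. Psme4 came nearest, at 10.94, 10.77 and 11.08 at 5, a change of -0.69 ± 0.20 (adjusted p = 0.0767). Psmb10 was 9.64, 9.92 and 9.51 at 5, above all rats at 2 (0.76 ± 0.25, adjusted p = 0.107). Psmb7 (0.89 ± 0.36, adjusted p = 0.165), Psmb9 (0.69 ± 0.25, adjusted p = 0.131) and Psme2 (0.65 ± 0.25, adjusted p = 0.15) were also listed higher at 5. Without replicate 3 at 2 μg Se/g, 26 genes were called, 23 of them higher at 5, among 8262 called probe sets (26.6%). Without replicate 1 or without replicate 2, 0 were called (0.767% and 0.47% of all probe sets), and without both the median was -0.07. The rats at 2 are shared with the comparison above, so both hold the same spread.

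**Figure D3:**
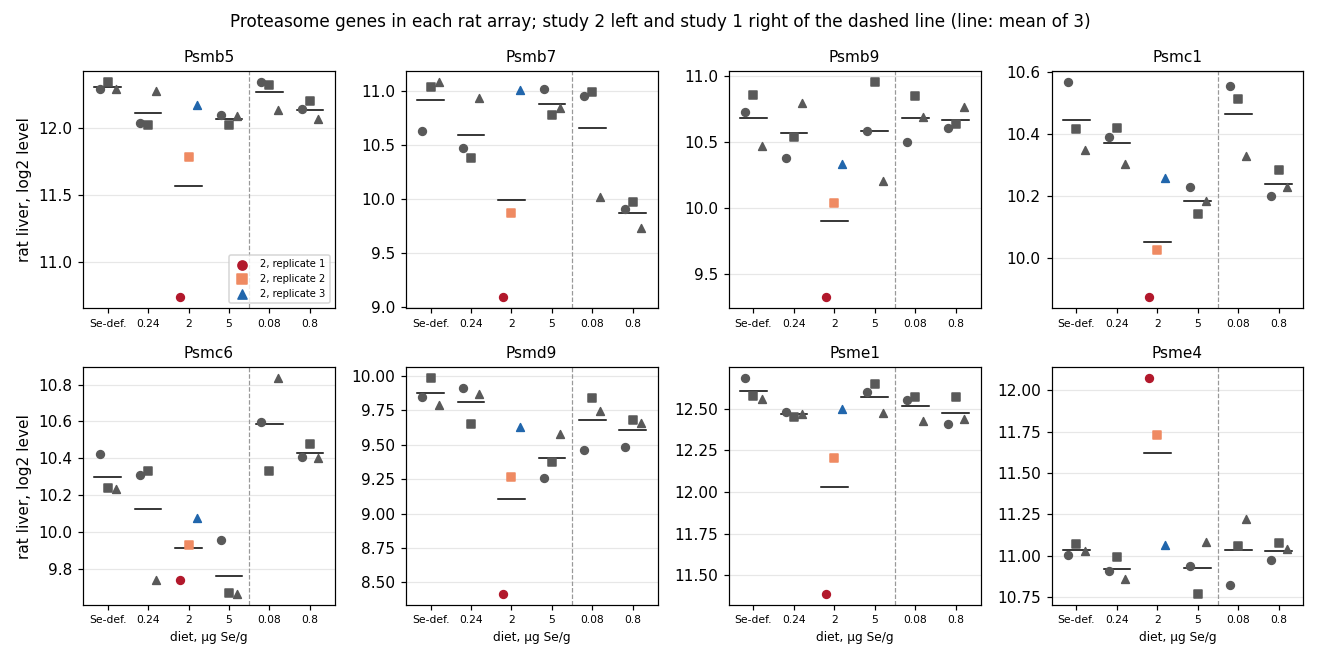
Log2 level of 8 proteasome genes in each rat array by diet (x axis, μg Se/g), with the mean of 3 rats as a line and the rats at 2 μg Se/g in colour. The dashed line parts study 2 from study 1, which the study's methods state were processed separately. Psmb5, Psmb9, Psmd9 and Psme1 are lowest in replicate 1 at 2, Psme4 is highest there at 12.07, and Psmb7 spreads widely in several diets.

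Se-deficient rats were listed slightly above Se-adequate rats in nearly all of the genes. The change was above 0 in 40 of 41, beside 45.9% of all probe sets, with a median of 0.12 against -0.01 over all probe sets, and all 3 Se-deficient rats were above all Se-adequate rats in 14 genes and below in 0, beside 5.75% and 5.89% of all probe sets. None was called (1 probe set of all was, 0.00322%), and Psmd14 alone had an unadjusted p under 0.05, as had 3.4% of all probe sets. Psmd14, the deubiquitinase of the 19S cap, was 10.79, 10.59 and 10.58 in Se-deficient and 10.41, 10.40 and 10.18 in Se-adequate rats, without overlap (0.32 ± 0.13, adjusted p = 0.999). Psmb5 was 12.29, 12.35 and 12.29 against 12.04, 12.03 and 12.28, also without overlap (0.20 ± 0.27), and Psme1 was 12.68, 12.58 and 12.56 against 12.48, 12.45 and 12.47 (0.14 ± 0.21). Psmb7 (0.32 ± 0.36), Psmb8 (0.12 ± 0.21) and Psmb9 (0.11 ± 0.25) overlapped. These errors hold the spread of the rats at 2, which are in the same fit. Without replicates 1 and 2 at 2 the number of called genes was still 0.

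Within rat study 1 the genes were mostly lower at 0.8 than at 0.08 μg Se/g, by a median of -0.11 (0.00 over all probe sets), with 33 of 41 below 0, beside 49.9% of all probe sets. All rats at 0.8 were below all rats at 0.08 in 12 genes and above in 0, beside 5.26% and 4.2% of all probe sets. None was called, as was no probe set of the array (0%), and 2 genes had an unadjusted p under 0.05, beside 4.58% of all probe sets. Psmb7 was 10.96, 10.99 and 10.02 at 0.08 and 9.91, 9.98 and 9.74 at 0.8, a change of -0.78 ± 0.24 (adjusted p = 0.967). The third rat at 0.08 stood close to the rats at 0.8, and without it the change was -1.10 ± 0.11 and Psmb7 was called (adjusted p = 0.0249). Psmd6, a non-ATPase cap subunit, was 11.06, 11.07 and 10.93 at 0.08 and 10.85, 10.75 and 10.74 at 0.8 (-0.24 ± 0.10, adjusted p = 0.967). Psmb8 (-0.24 ± 0.11) and Psme2 (-0.14 ± 0.09) did not overlap between these diets, whereas Psmb5 (-0.13 ± 0.10), Psmb9 (-0.01 ± 0.12) and Psme1 (-0.05 ± 0.10) did. Psmb7 had the largest pooled SD of the rat genes over the groups other than 2 μg Se/g, at 0.31.

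In mouse liver, Se deficiency left the genes near their Se-adequate levels. The median change was 0.05 (-0.02 over all probe sets) and 32 of 44 genes were above 0, beside 43.9% of all probe sets. None was called, beside 10 of 45037 probe sets (0.0222%), and Psmd5 alone had an unadjusted p under 0.05, as had 4.63% of all probe sets. Psmd5, a chaperone of cap assembly, was 9.43, 9.45 and 9.36 in Se-deficient and 9.28, 9.19 and 9.18 in Se-adequate liver, without overlap (0.20 ± 0.07, adjusted p = 0.926). Psmb5 was 11.86, 11.86 and 12.05 against 11.79, 11.83 and 11.84 (0.10 ± 0.08), Psmb6, the caspase-like subunit, was 11.27, 11.33 and 11.34 against 11.29, 11.31 and 11.25 (0.03 ± 0.07), and Psmb7 changed by 0.10 ± 0.08. All 6 ATPase genes were above 0 (median 0.06), with Psmc1 at 0.14 ± 0.14. Psma8 (-0.23 ± 0.13), a testis subunit, and Psmb11 (-0.17 ± 0.09), a thymus subunit, were low on these arrays. The remaining roles were led by Psmd7 (0.13 ± 0.09) and Psme4 (0.17 ± 0.14), each with adjusted p = 0.926. At 0.05 against 0.2 μg Se/g, 37 of 44 genes were below 0, beside 48.6% of all probe sets (median -0.07, 0.00 over all probe sets), and none was called (nor was any probe set, 0%). The arrays at 0.05 differed: 18, 42 and 32 genes were below the mean at 0.2 in replicates 1, 2 and 3. The shares of all probe sets were 52.7%, 46.9% and 49.8%. Psmd10 alone had an unadjusted p under 0.05, beside 1.95% of all probe sets, at 7.71 to 7.91 against 7.98 to 8.08 (-0.20 ± 0.08, adjusted p = 1).

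Mouse kidney gave as little. In Se deficiency the median change was -0.02 (-0.01 over all probe sets), 18 of 44 genes were above 0, beside 47.3% of all probe sets, and none was called, beside 3 probe sets of all (0.00666%). Psma4, of the alpha ring, was 11.95, 12.03 and 11.96 in Se-deficient and 11.47, 11.94 and 11.48 in Se-adequate kidney (0.35 ± 0.14, adjusted p = 0.893), and it was the only one of the genes with an unadjusted p under 0.05, beside 5.42% of all probe sets. Psmd1 was 9.59, 9.60 and 9.65 against 9.48, 9.44 and 9.45 (0.16 ± 0.08, adjusted p = 0.893), also without overlap. Psmb5 (-0.05 ± 0.11), Psmb6 (0.01 ± 0.08) and Psmb7 (0.06 ± 0.15) differed by less than their errors. Psmb2 (-0.16 ± 0.08), Psmc2 (-0.05 ± 0.06), Psmd10 (-0.15 ± 0.12) and Psme4 (0.15 ± 0.09) had the smallest p of their roles. At 0.05 against 0.2 μg Se/g the median was -0.06 (0.00 over all probe sets), 31 of 44 genes were below 0, beside 50.8% of all probe sets, none was called (no probe set was, 0%), and 0 had an unadjusted p under 0.05, beside 2.91% of all probe sets. The Se-deficiency response of liver minus that of kidney, tested as an interaction, was called in 0 of 44 genes and in 1 of all probe sets (0.00222%). It had an unadjusted p under 0.05 in 2 genes, beside 5.79% of all probe sets: Psmd5 (0.29 ± 0.09) and Psmb11 (-0.29 ± 0.12, adjusted p = 0.835 for both).

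In the immunoproteasome genes of the mouse, 1 array of each tissue stood above the rest. In liver, Psmb8 was 9.12, 9.77 and 9.11 in Se-deficient mice, 9.68, 9.15 and 10.84 at 0.05 and 9.61, 9.74 and 9.52 at 0.2 μg Se/g. In kidney it was 7.86, 8.42 and 7.93, then 8.38, 7.88 and 10.82, then 8.23, 8.42 and 8.28. The highest array in both tissues was replicate 3 at 0.05, 1.07 above the next array in liver and 2.40 in kidney. Psmb9 was 10.78 in that liver array and 9.92 in that kidney array, where the other 8 arrays of the tissue lay between 8.73 and 9.81 and between 7.22 and 8.22. Psmb10 was 11.03 and 9.88, against 9.75 to 10.33 and 7.92 to 8.96, and Psme1 was 11.23 and 10.12, against 10.65 to 11.14 and 9.26 to 9.65. These 4 were the only genes of the 44 with their highest value in that array number in both tissues, beside 1.81% of all probe sets. Both probe sets of Psmb8 were highest there. The standard catalytic genes were not: Psmb5 was 11.84 in liver and 11.46 in kidney (other arrays 11.69 to 12.05 and 11.49 to 11.83), Psmb6 was 11.19 and 10.91, and Psmb7 was 11.88 and 12.06. The labels do not say whether liver and kidney arrays of the same number came from 1 mouse.

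**Figure D4:**
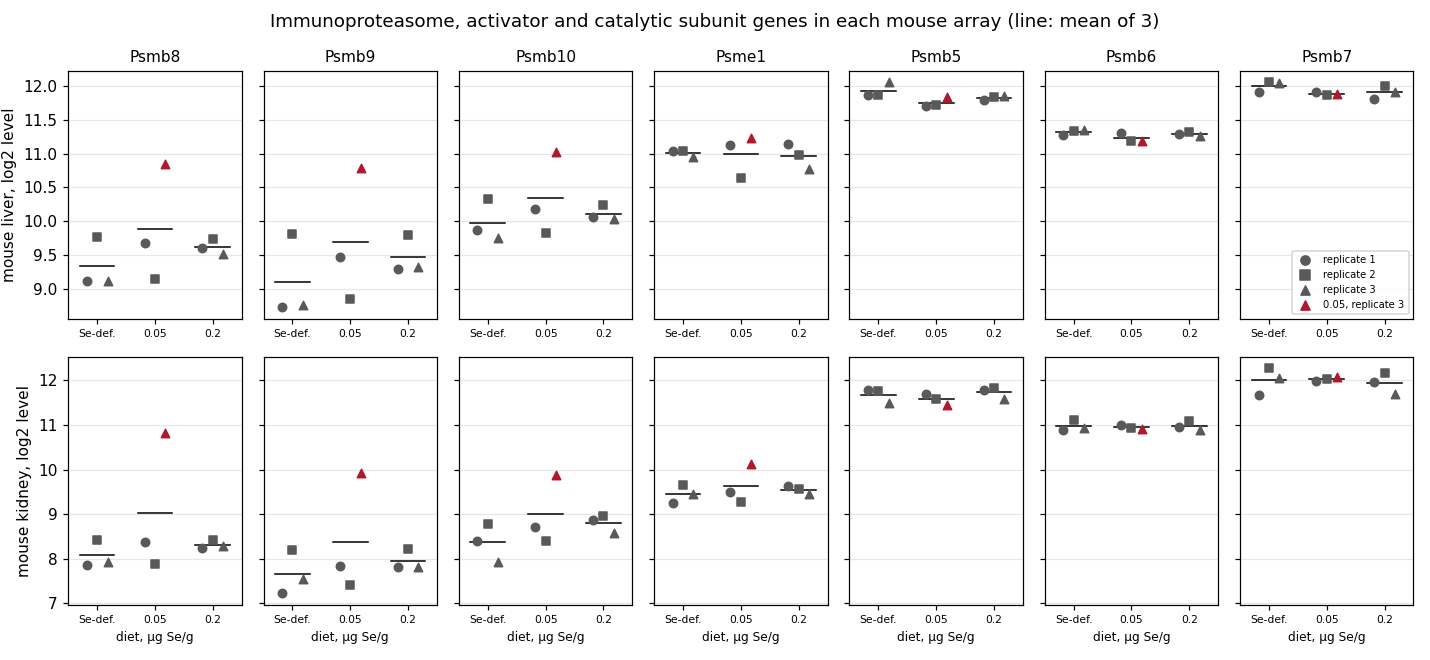
Log2 level of the immunoproteasome genes Psmb8, Psmb9 and Psmb10, the activator Psme1 and the standard catalytic genes Psmb5, Psmb6 and Psmb7 in each mouse array by diet (x axis, μg Se/g), liver above and kidney below, with the mean of 3 arrays as a line. Replicate 3 at 0.05 μg Se/g (red) is highest in the first 4 genes of both tissues, for Psmb8 at 10.84 and 10.82, but not in the last 3.

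None of these genes was called between mouse diets. Psmb8 changed by -0.29 ± 0.34 in Se-deficient liver (adjusted p = 0.932) and by -0.24 ± 0.58 in Se-deficient kidney (adjusted p = 0.972), Psmb9 by -0.38 ± 0.43 and -0.30 ± 0.53, and Psmb10 by -0.13 ± 0.25 and -0.44 ± 0.33. Psme1 changed by 0.04 ± 0.14 and -0.09 ± 0.19. At 0.05 against 0.2 μg Se/g, Psmb8 changed by 0.27 ± 0.34 in liver and 0.72 ± 0.58 in kidney (adjusted p = 1 for both). Other genes moved with the same array. Of 19 antigen-processing and interferon genes, 11 in liver and 17 in kidney had their highest value in replicate 3 at 0.05, beside 14.9% and 8.34% of all probe sets, and the summed level of the list there was 164.9 in liver (150.9 to 159.6 in the other arrays) and 153.7 in kidney (135.2 to 143.0). Tap1, the peptide transporter of class I presentation, was 9.79 in liver and 9.19 in kidney there, against highest other values of 9.09 and 8.19. Of 19 leukocyte markers, 14 in liver and 10 in kidney were highest in that array, with a summed level of 164.1 in liver (140.1 to 156.0 elsewhere) and 140.8 in kidney (133.8 to 136.3). Ptprc (CD45), which defines leukocytes, was 8.70 and 7.86 there, and Cd74, of antigen-presenting cells, 12.29 and 13.53. In liver, Psmb9 was next highest in replicate 2 of the Se-deficient mice (9.81), with a leukocyte sum of 156.0, and in replicate 2 at 0.2 μg Se/g (9.80), with one of 146.2. The part of leukocytes in these levels was not tested.

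The start regions of these 4 genes are shown because they were high together in 1 mouse array of each tissue. They are RefSeq sequences of the mouse assembly GRCm38.p6, written 5′ to 3′ on the gene's strand, from 250 bases before the annotated start to 50 bases after it. Capitals mark matches on either strand to the core of a gamma-activated site (TTC, any 3 bases, GAA), to the paired GAAA repeats of an interferon response element (GAAA, any 2 bases, GAAA) or to a CCAAT box, and no matches overlap.
Psmb8, chr17:34197945-34198244, plus strand: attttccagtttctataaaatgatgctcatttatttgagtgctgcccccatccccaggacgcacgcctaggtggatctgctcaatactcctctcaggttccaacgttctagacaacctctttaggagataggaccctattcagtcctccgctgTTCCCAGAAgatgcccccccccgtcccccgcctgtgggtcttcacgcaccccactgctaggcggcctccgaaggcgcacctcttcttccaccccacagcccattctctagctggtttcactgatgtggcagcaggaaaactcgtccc
Psmb9, chr17:34187281-34187580, minus strand: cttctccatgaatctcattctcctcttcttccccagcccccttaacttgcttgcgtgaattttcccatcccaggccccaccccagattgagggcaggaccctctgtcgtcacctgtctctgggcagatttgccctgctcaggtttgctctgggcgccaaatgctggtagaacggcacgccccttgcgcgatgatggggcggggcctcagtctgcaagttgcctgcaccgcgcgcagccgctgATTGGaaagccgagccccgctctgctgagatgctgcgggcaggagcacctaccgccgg
Psmb10, chr8:105938343-105938642, minus strand: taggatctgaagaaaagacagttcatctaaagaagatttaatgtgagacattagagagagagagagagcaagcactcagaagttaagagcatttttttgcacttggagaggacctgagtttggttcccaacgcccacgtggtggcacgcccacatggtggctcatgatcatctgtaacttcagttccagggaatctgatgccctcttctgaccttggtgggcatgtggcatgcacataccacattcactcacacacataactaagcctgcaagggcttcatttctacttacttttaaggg
Psme1, chr14:55578244-55578543, plus strand: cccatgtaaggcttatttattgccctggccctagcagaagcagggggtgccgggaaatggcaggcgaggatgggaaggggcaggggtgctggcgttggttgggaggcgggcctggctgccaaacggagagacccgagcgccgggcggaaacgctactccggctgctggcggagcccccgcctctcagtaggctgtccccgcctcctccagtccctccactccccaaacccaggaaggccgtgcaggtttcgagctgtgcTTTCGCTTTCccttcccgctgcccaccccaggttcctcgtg
Psmb8 held the gamma-activated core at -97 to -89 from the start, Psme1 held the paired GAAA repeats on the minus strand at 10 to 19 after it, and Psmb9 held CCAAT on the minus strand at -8 to -4. The window of Psmb10 held none of these letters. Among all 32851 start regions of that length, the gamma-activated core was in 8.3%, the paired GAAA repeats in 3.44% and CCAAT in 37.4%. Among the 42 regions of the proteasome genes (38 of 45 symbols matched), they were in 2, 4 and 16. These matches are descriptions of letters and not of binding.

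Mean levels in liver arrays were above those in kidney arrays in the interferon-induced genes and in several others. Over 9 arrays each, Psmb9 averaged 9.43 ± 0.65 (SD) in liver and 7.99 ± 0.80 in kidney, Psmb10 10.15 ± 0.38 and 8.72 ± 0.53, Psmb8 9.62 ± 0.53 and 8.47 ± 0.91, and Psme1 10.99 ± 0.18 and 9.54 ± 0.26. Psmb8, Psmb9 and Psmb10 overlapped between the tissues, and Psme1 did not. The means of Psmb11 differed by 2.14, those of Psmd9 by 1.68 and those of Psmb3 by 1.42, without overlap. Psmb5 averaged 11.83 ± 0.10 and 11.66 ± 0.14. Of the 42 genes with the same probe set in both tissues, all 9 liver arrays were above all 9 kidney arrays in 14 and below in 7, beside 20.9% and 26.8% of all probe sets. Since the tissues were processed apart, this is a description and no test was made.

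Related genes were called mainly at 5 μg Se/g. Against 0.24 μg Se/g, 2 of 14 regulators of proteasome genes rose and none fell, beside 2.21% of all probe sets called higher and 0.609% called lower. These were Maff (4.09 ± 0.13, SD, to 4.99 ± 0.19, adjusted p = 0.00485) and Mafk (8.09 ± 0.14 to 8.73 ± 0.10, adjusted p = 0.00724), both small Maf proteins that pair with Nrf1 and Nrf2, and both were also called higher against the rats at 2. Of 13 other proteasome factors, 7 ubiquitin enzyme genes, 17 shuttle and p97 genes and 20 antigen-processing and interferon genes, 0 were called at 5 against 0.24. Among cell type markers in the same comparison, 0 of 10 hepatocyte markers were called. Of 17 leukocyte markers, 1 was called, and it fell (Clec4f, of Kupffer cells, -1.78 ± 0.33, adjusted p = 0.0141). Yet 14 of the 17 were above 0 and 3 below (median 0.22), beside 42.6% of all probe sets above 0. Of 15 endothelial, stellate and bile duct markers, 7 rose and 1 fell, led by Krt19 of bile duct cells (2.63 ± 0.32, adjusted p = 0.00179). Against the rats at 2, 5 of these 15 markers rose and 2 fell, and 2 of 17 leukocyte markers rose (Cd74 and Coro1a) while Clec4f fell, beside 2.13% and 1.21% of all probe sets. Their part in the proteasome levels was not tested. In the mouse comparisons, in rat Se deficiency and at 0.8 against 0.08 μg Se/g, 0 of these genes were called apart from the selenoproteins used to check the diets.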

How the data were processed

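The proteasome genes and gene lists were chosen with earlier results of these data known. RNA from 36 tissues was hybridised to Affymetrix mouse and rat expression arrays, 3 animals per diet. Each deposited table lists, for every probe set, its expression on the log2 scale. The submitters' processing notes name GCRMA without a version, while the study's methods name RMA, so these sources differ on which made them. With all rat arrays in 1 fit, the deposited values gave 1193 called probe sets at 5 against 0.24 μg Se/g and 6 at 2 against 0.24. The paper reports the same numbers from RMA values. Its methods state that each rat study and mouse tissue was processed separately. The split of rat diets into study 1 and study 2 follows the study's methods. Array controls (64 mouse, 57 rat probe sets) were left out, leaving 45037 and 31042 probe sets. Symbols came from GEO's platform annotation, which can be old, and a probe set with several symbols was not named.

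Groups were compared with limma 3.58.1 in R 4.3.3, with 1 coefficient per diet and all arrays of a mouse tissue or rat study in the fit. The difference of Se deficiency between mouse tissues used all 18 mouse arrays. P-values were adjusted by Benjamini-Hochberg over all probe sets and called below 0.05; the fit was tested on simulated data. Errors in the text are standard errors of the fitted change unless marked SD. Members named with values were those with an unadjusted p under 0.05, the genes with the smallest p of each role at 5 against 0.24 and in mouse Se deficiency, the catalytic, immunoproteasome and Psme1 and Psme2 genes, and the ends of the level range; others were named after their values were seen. The alternatives were other sets of arrays in the fit, variance model, array weights, a filter on dim probe sets, quantile normalization, the replicate number as a block, the mean over probe sets, and leaving out arrays. Same-numbered arrays deviated together (every correlation of deviations above 0.1) for Se-deficient and 0.2 μg Se/g mouse liver (0.105 to 0.462), and for liver and kidney at 0.05 and 0.2 μg Se/g, but not elsewhere; the labels do not state a pairing. With 3 arrays per group, precision is limited by their number. Promoters were searched with Python 3.11.15.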

Additional observations from a re-analysis of the deposited data

How the results depend on the processing

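The number of called proteasome genes stayed at 0 in all alternatives for the 4 mouse comparisons, the tissue difference and rat Se deficiency. This included leaving replicate 3 at 0.05 μg Se/g out of the mouse Se-deficiency fits, also chosen after seeing the data. At 2 against 0.24 μg Se/g in rat liver it was 0 except with array weights (35) and in leaving out single rats (0 to 31). At 5 against 2 it was 2 with all rat arrays in one fit (Psmb10 and Psme4, beside 7.71% of all probe sets), 28 with array weights (48.2%) and 0 to 26 in leaving out single rats. At 5 against 0.24 it was 1 with array weights (Psmc6, beside 10.3%) and 0 without any single rat, and at 0.8 against 0.08 it was 0 to 1 without single rats. Array weights gave replicate 2 at 2 μg Se/g a weight of 153.8 against 0.17 and 0.16 for the other two rats, so that group's mean then rested on 1 array, and 13048 probe sets (42%) were called. The median changes moved by more than the spread between arrays only without replicates 1 and 2 at 2 μg Se/g, chosen after seeing the data, to -0.0075 at 2 against 0.24 and -0.0672 at 5 against 2. In leaving out single arrays, the median ranged from -0.57 to -0.14 at 2 against 0.24, from 0.05 to 0.46 at 5 against 2, from -0.0012 to 0.0957 in Se-deficient mouse liver from -0.07 to 0.01 in Se-deficient mouse kidney, from -0.10 to -0.02 at 0.05 against 0.2 in mouse liver and in mouse kidney, and from -0.07 to -0.02 at 5 against 0.24.

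With the replicate number as a block, 0 genes were called in mouse liver and in all other comparisons, and the block changed no call. In mouse liver, same-numbered Se-deficient and 0.2 μg Se/g arrays deviated together, but the labels state no pairing, litter or day for the numbers in any group. Without both rats at 2 that stood apart, 6 single changes turned sign: Psmb4 (0.00653), Psmc5 (0.00669), Psmd1 (0.00847) and Psme2 (0.0249) at 2 against 0.24, and Psmb2 (-0.00400) and Psmb7 (-0.132) at 5 against 2. The arrays give no count behind a level. A change smaller than about its error could not be told from 0, and changes well above their errors were not called either.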
